A study of Mus musculus with 6 samples.

Results

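Mitochondrial ribosomal protein genes were examined in kidneys of cisplatin-treated and control mice. They were taken as the protein-coding genes whose symbol starts with Mrpl or Mrps followed by a digit, which gave 78 of the 56691 genes in the count files. Total RNA from whole kidney of C57BL/6 male mice was sequenced, with 3 libraries from mice given 4 intraperitoneal injections of 8 mg/kg cisplatin at weekly intervals and 3 libraries from mice given saline. Mice were 9 weeks old at the first injection, and kidneys were taken at week 7. The methods call the 3 libraries of a group biological replicates, and the p-values below measure the spread between these libraries only. The libraries held 21891855 to 26627554 counted read pairs, of which 96.7% to 97.2% of the stranded counts lay on the strand of the transcript.

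The mitochondrial ribosome translates the few messenger RNAs of the mitochondrial genome, which encode core subunits of the respiratory chain and the ATP synthase. Its ribosomal RNAs are transcribed inside the organelle, whereas all of its proteins are encoded in the nucleus, made in the cytosol and imported, so that its assembly needs gene expression in both compartments. Many of its proteins descend from bacterial ribosomal proteins and others exist only in mitochondria. The proximal tubule, which reabsorbs most of the filtered solutes, is among the tissues richest in mitochondria.

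By structure, 51 of the 78 members belong to the large subunit and 26 to the small subunit. Mrps30 and Mrps18a are counted with the large subunit, where their proteins sit in spite of their symbols. Mrps36 was counted with neither, because its protein is now assigned to the oxoglutarate dehydrogenase complex. The filter on low counts was passed by 77 members, with 74 to 1766 read pairs per library. Mrpl53, a large-subunit protein, was listed at 0 in all 6 libraries and was not tested.

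Promoters are shown first because many members share short sequence cores near their starts. RefSeq promoter windows (GRCm38.p6, 250 bases before to 50 after a start) were found for 69 of the 78 members, and each core was searched on both strands. A member was counted if any of its windows held the core, with 75 windows for the 69 members. The comparison shares are instead per window, with 32851 windows for 27025 genes in all, so the measures are unlike. The ETS core CCGGAAG, the recognition core of GABP and related factors, stood in 26 of 69 members (37.7%), against 8.86% of 32851 windows in the table and 15.7% of the windows of tested genes. The YY1 core AAGATGGC stood in 12 members (17.4%), against 2.75% of all windows and 4.0% of those of tested genes. The NRF1 core GCATGCGC stood in 8 members (11.6%), against 2.71% of all windows and 4.57% of those of tested genes. At least 1 of these 3 cores was present in 38 of 69 members (55.1%), against 13.3% of all windows and 22.3% of those of tested genes. The Sp1 box GGGCGG stood in 49.3% of members, against 35.7% of all windows and 59.3% of those of tested genes. CCAAT stood in 39.1% of members, against 37.4% and 37.0%, and the E-box CACGTG in 7.25%, against 7.15% and 9.51%. A match is a description of the window and not evidence of a bound factor.

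Windows of 5 members are given 5′ to 3′ on the strand of the gene, with the cores in capitals, to show each core in members that fell after cisplatin (Mrpl10, Mrps21 and Mrps7), in the member with the largest rise (Mrpl33) and in a member that was not called (Mrps11). In the Mrpl10 window (chr11:97041332-97041631, plus strand) the NRF1 core begins 134 bases before the start. In the Mrps21 window (chr3:95871465-95871764, minus strand) the ETS core lies on the opposite strand, 19 bases after the start. In the Mrps7 window (chr11:115603890-115604189, plus strand) the YY1 core begins 19 bases after the start. The Mrpl33 window (chr5:31613701-31614000, plus strand) holds an NRF1 core on the opposite strand 12 bases before the start and an ETS core 3 bases before it. In the Mrps11 window (chr7:78782881-78783180, plus strand) the YY1 core lies on the opposite strand, 107 bases before the start.
Mrpl10: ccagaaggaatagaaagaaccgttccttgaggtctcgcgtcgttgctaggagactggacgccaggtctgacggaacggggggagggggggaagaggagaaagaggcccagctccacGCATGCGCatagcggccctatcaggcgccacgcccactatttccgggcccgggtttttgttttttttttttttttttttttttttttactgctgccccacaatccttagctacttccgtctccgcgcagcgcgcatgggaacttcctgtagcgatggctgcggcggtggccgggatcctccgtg
Mrps21: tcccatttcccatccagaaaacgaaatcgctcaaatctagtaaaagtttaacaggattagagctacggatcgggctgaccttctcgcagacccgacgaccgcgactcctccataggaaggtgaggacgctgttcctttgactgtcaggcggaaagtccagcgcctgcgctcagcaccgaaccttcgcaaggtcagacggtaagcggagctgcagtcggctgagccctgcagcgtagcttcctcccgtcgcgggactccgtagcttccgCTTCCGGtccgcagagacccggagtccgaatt
Mrps7: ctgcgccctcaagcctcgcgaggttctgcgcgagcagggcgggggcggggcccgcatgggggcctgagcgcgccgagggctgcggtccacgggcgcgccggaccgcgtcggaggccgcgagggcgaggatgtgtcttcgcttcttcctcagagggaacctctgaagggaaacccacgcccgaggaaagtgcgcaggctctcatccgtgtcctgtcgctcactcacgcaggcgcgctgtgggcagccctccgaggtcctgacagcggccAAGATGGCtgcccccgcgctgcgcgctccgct
Mrpl33: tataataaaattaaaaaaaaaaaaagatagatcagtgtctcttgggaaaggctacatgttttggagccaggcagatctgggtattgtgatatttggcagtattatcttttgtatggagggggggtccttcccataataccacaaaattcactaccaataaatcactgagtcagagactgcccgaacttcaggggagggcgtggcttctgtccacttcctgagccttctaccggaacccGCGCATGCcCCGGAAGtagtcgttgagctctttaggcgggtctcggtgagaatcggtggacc
Mrps11: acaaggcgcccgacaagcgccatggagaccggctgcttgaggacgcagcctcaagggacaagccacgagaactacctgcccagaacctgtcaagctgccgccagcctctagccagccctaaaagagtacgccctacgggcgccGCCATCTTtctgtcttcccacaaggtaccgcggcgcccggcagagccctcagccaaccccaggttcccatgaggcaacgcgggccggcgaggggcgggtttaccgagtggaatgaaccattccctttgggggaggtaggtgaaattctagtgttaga

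Members that fell were found both with and without each core. With the ETS core, 18 of 25 tested members were lower after cisplatin (median log2 fold change -0.36), and without it 32 of 43 were lower (median -0.46). With the YY1 core, 10 of 12 were lower (median -0.53), against 40 of 56 without it (median -0.39). With the NRF1 core, 5 of 8 were lower (median -0.53), against 45 of 60 without it (median -0.41). These counts were not tested against each other, and 22.8% of all tested genes were lower.

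Most mitochondrial ribosomal protein genes were lower in cisplatin-treated kidneys, each by a modest amount. Of 77 tested members, 57 fell (74.0%) and 2 rose, Mrpl33 and Mrps6, whereas 18 were not called (edgeR quasi-likelihood test, Benjamini-Hochberg adjusted p under 0.05 over all 15662 tested genes). Over all tested genes, 22.8% were called lower and 24.5% higher. The median log2 fold change of the members was -0.41, a fall of 24.8%, against 0.05 for all tested genes, and it was 0.0083 when libraries were scaled by their totals alone, where the median of all tested genes was 0.48. Fold changes are given as cisplatin over control, from the edgeR fit to the counts. CPM are the read pairs of a gene per 1000000 pairs of a library size that is multiplied by its TMM factor. No member fell by 2-fold or more, and 22 fell by 1.5-fold or more. Standard errors of the log2 fold changes ran from 0.0832 to 0.172.

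**Figure D1:**
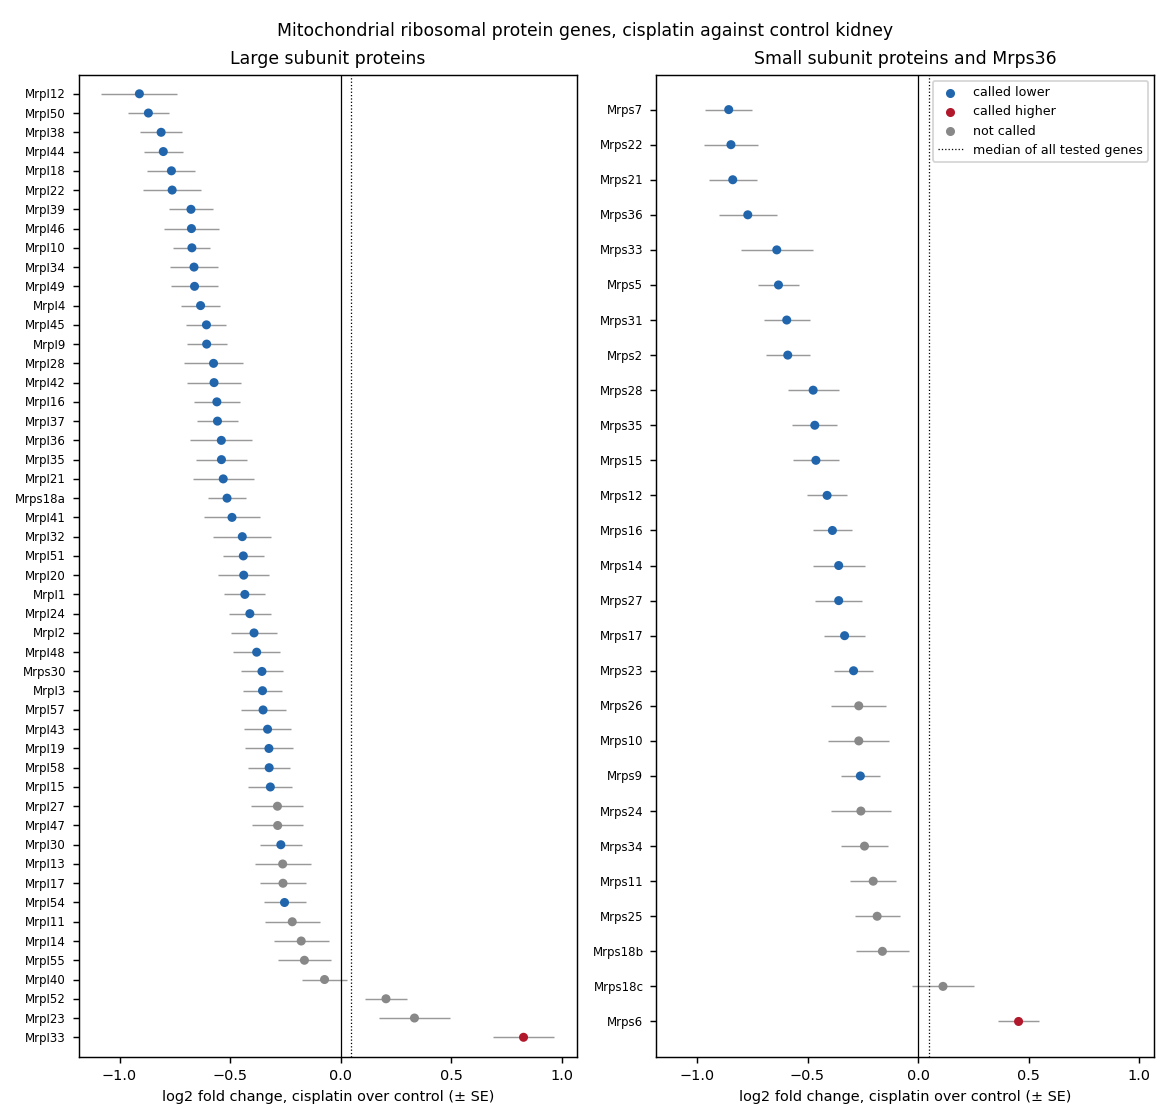
Log2 fold change (cisplatin over control, edgeR) of the 77 tested members with its SE, in large-subunit proteins (left) and in small-subunit proteins with Mrps36 (right), coloured by call. With TMM factors 72 of 77 points lie below 0 and 5 above it, whereas with library totals 38 lie below and 39 above; the dotted line is the median of all tested genes (0.05).

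In 60 members all cisplatin libraries were under the lowest control library, and in 4 members, Mrpl33, Mrps6, Mrpl23 and Mrpl52, all were over the highest. Over all tested genes, 27.6% lay wholly below and 30.2% wholly above. All 57 members that fell were among the 60, and the other 3 (Mrpl17, Mrpl27 and Mrpl47) had edgeR adjusted p of 0.0557, 0.067 and 0.0643. The remaining 13 members overlapped between the groups. In RNA of whole kidney, fewer cells of a type and less RNA per cell cannot be told apart.

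The largest fall was in Mrpl12, a protein of the flexible stalk that recruits translation factors to the large subunit (ENSMUSG00000039640, chr11:120375430-120381396, GRCm39). It measured 41.4, 54.9 and 30.9 CPM in the cisplatin libraries, against 71.0, 83.8 and 84.9 CPM in the control libraries. The groups were apart, but Mrpl12 had the largest SE of the tested members, and its log2 fold change was -0.91 ± 0.17 (SE, n = 3 each, edgeR adjusted p = 0.00141). With library totals Mrpl12 was no longer called (-0.47, edgeR adjusted p = 0.0797). Mrpl50, a large-subunit protein found only in mitochondria, measured 25.8, 26.0 and 28.0 CPM after cisplatin, against 52.8, 43.6 and 49.1 CPM in controls. Its log2 fold change of -0.87 ± 0.094 (SE) had the smallest adjusted p of the family (edgeR, 3.31e-05), and its cisplatin libraries lay close together.

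Other members fell by nearly as much, in both subunits. Mrps7, a protein of the head of the small subunit with a bacterial homolog, measured 26.1, 31.4 and 35.0 CPM after cisplatin, against 55.2, 54.7 and 57.3 CPM in controls. Its log2 fold change was -0.86 ± 0.11 (SE, edgeR adjusted p = 9.24e-05), with all 3 cisplatin libraries well under the controls. Mrps22, which exists only in mitochondrial ribosomes, measured 8.64, 8.11 and 10.4 CPM after cisplatin, against 15.7, 15.3 and 17.7 CPM in controls (log2 fold change -0.85 ± 0.12, SE). Mrps21, whose promoter window carries the ETS core shown above, measured 27.7, 31.3 and 37.2 CPM after cisplatin, against 54.6, 58.6 and 58.5 CPM in controls (log2 fold change -0.84 ± 0.11, SE). In both genes the groups were apart and cisplatin replicate 3 was the nearest to the controls.

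Among the large-subunit proteins, Mrpl44, which has a fold related to ribonuclease III, had closely spaced values in both groups. It measured 13.5, 15.2 and 14.6 CPM after cisplatin, against 25.1, 25.4 and 24.9 CPM in controls, a log2 fold change of -0.80 ± 0.089 (SE, edgeR adjusted p = 4.11e-05). Mrpl38 measured 20.9, 24.7 and 25.3 CPM after cisplatin, against 40.3, 42.4 and 41.6 CPM in controls (log2 fold change -0.81). Mrpl18, the homolog of the bacterial protein that binds 5S ribosomal RNA, measured 24.9, 27.5 and 33.5 CPM after cisplatin, against 49.0, 48.3 and 48.5 CPM in controls (log2 fold change -0.77). In these 3 genes, too, no cisplatin library reached a control library. Mrpl4 and Mrps5, homologs of bacterial proteins of the large and the small subunit, each had a log2 fold change of -0.63 (edgeR adjusted p = 2.00e-04 and 2.50e-04).

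Proteins with a known place in the ribosome did not all change by the same amount. The stalk is formed by Mrpl10, Mrpl11 and Mrpl12. Mrpl10, the base to which Mrpl12 binds, measured 23.6, 25.3 and 26.3 CPM after cisplatin, against 38.7, 40.3 and 40.9 CPM in controls (log2 fold change -0.67, edgeR adjusted p = 8.49e-05). Mrpl11, which lies at the root of the stalk, measured 17.3, 19.5 and 23.9 CPM after cisplatin, against 25.6, 22.1 and 22.7 CPM in controls. Its groups overlapped and it was not called (log2 fold change -0.22 ± 0.12, SE, edgeR adjusted p = 0.17), and with library totals it stood at 0.20. Without cisplatin replicate 3 the value of Mrpl11 was -0.39 (edgeR adjusted p = 0.00855). Mrpl45, which anchors the ribosome to the inner membrane next to the exit of the peptide tunnel, measured 17.8, 17.6 and 20.2 CPM after cisplatin, against 28.6, 27.5 and 28.5 CPM in controls (log2 fold change -0.61, edgeR adjusted p = 3.00e-04).

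Mrps12, a protein of the decoding centre, measured 16.3, 18.4 and 18.2 CPM after cisplatin, against 23.3, 23.6 and 23.5 CPM in controls. Its fall was close to the median of the family (log2 fold change -0.41, edgeR adjusted p = 0.00332) and its value was 0.013 with library totals. Mrpl58, a peptidyl-tRNA hydrolase built into the large subunit that can release stalled peptides, measured 19.2, 22.3 and 23.2 CPM after cisplatin, against 26.4, 26.7 and 27.7 CPM in controls. The log2 fold change of Mrpl58 was -0.32 (edgeR adjusted p = 0.017), against 0.098 with library totals. Without control replicate 3, Mrpl58 was no longer called (log2 fold change -0.31, edgeR adjusted p = 0.0688).

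The 3 members of the Mrps18 group, which descend from the same bacterial protein S18, stood apart from each other. Mrps18a, which sits in the large subunit, measured 22.2, 25.3 and 24.8 CPM after cisplatin, against 34.9, 33.3 and 35.0 CPM in controls (log2 fold change -0.51 ± 0.086, SE, edgeR adjusted p = 6.68e-04). Mrps18b, of the small subunit, measured 11.5, 14.5 and 13.3 CPM after cisplatin, against 13.2, 14.9 and 15.8 CPM in controls, and its groups overlapped (log2 fold change -0.16 ± 0.12, SE, edgeR adjusted p = 0.283). Mrps18c, also of the small subunit, measured 6.96, 8.08 and 9.99 CPM after cisplatin, against 7.52, 7.55 and 7.98 CPM in controls (log2 fold change 0.11 ± 0.14, SE, edgeR adjusted p = 0.537). Without cisplatin replicate 3 the value of Mrps18c was -0.062. With library totals Mrps18c was called higher (0.53, edgeR adjusted p = 0.00539), whereas Mrps18a was not called (-0.09, edgeR adjusted p = 0.415). With totals that leave out the mitochondrial genome, too, Mrps18c was called higher (0.44) and Mrps18a was not called (-0.18, edgeR adjusted p = 0.0705). The differences between the 3 genes were not tested.

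By subunit, 39 of 50 tested large-subunit genes fell and 1 rose (median log2 fold change -0.44), and 17 of 26 small-subunit genes fell and 1 rose (median -0.36). By descent, 23 of 28 genes of proteins classed here as found only in mitochondria fell and none rose (median -0.45). Of 48 genes classed as having a bacterial homolog, 33 fell and 2 rose (median -0.40). By these classes the highest share lower was in mitochondria-specific genes of the large subunit, with 17 of 19 lower (median -0.49). Of small-subunit genes with a bacterial homolog, 11 of 17 were lower (median -0.36). The classes of Mrpl55, counted as a bacterial homolog and not called, and of Mrpl58, counted as mitochondria-specific and called lower, are uncertain, so the counts by descent are approximate. These shares were not tested against each other, and 22.8% of all tested genes were lower and 24.5% higher. Mrps36, of the oxoglutarate dehydrogenase complex, measured 8.47, 10.5 and 11.6 CPM after cisplatin, against 15.6, 17.3 and 19.1 CPM in controls (log2 fold change -0.77, edgeR adjusted p = 7.40e-04).

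**Figure D2:**
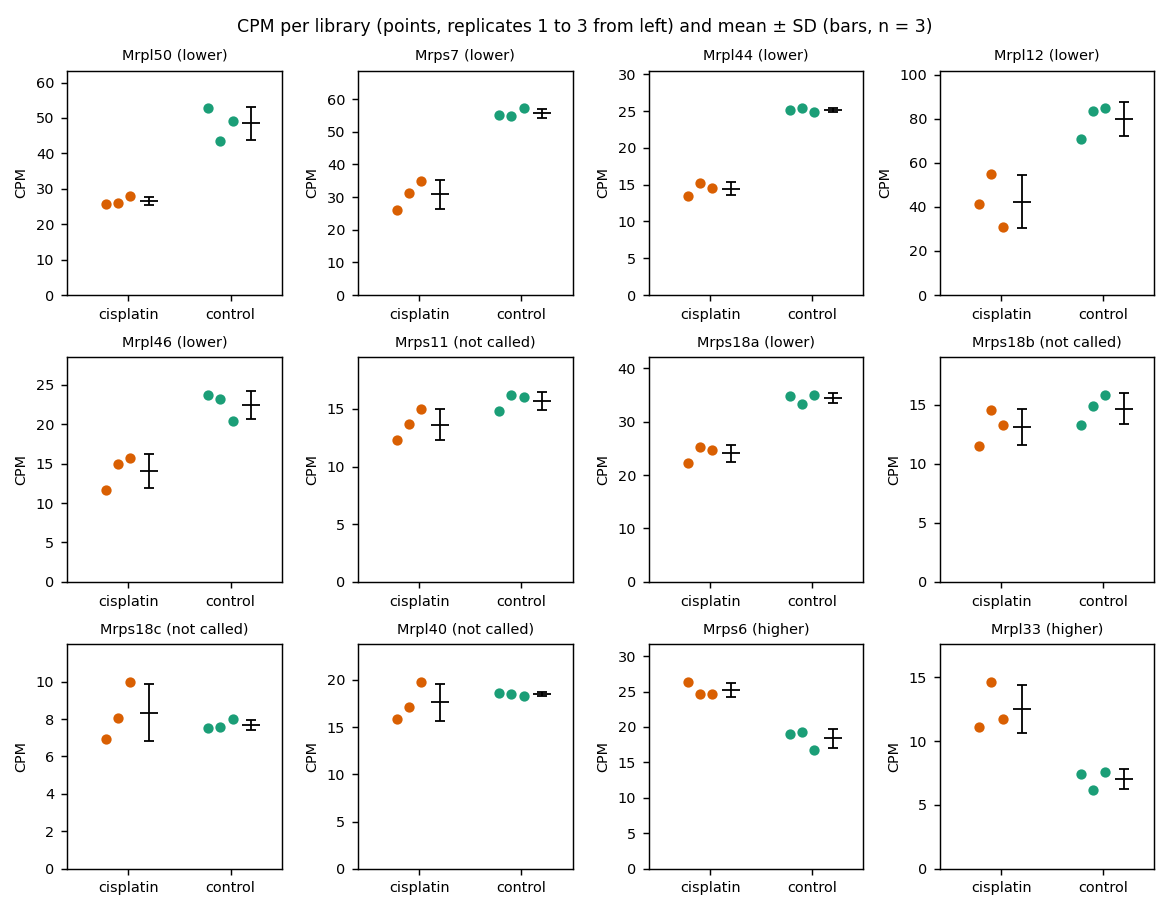
CPM of 12 members in each library (points, cisplatin left, control right) with the mean and SD of 3 libraries beside them, on axes that start at 0. Mrpl50, Mrps7, Mrpl44, Mrpl12, Mrpl46 and Mrps18a are lower in every cisplatin library, Mrps6 and Mrpl33 are higher in every cisplatin library, and Mrps11, Mrps18b, Mrps18c and Mrpl40 overlap.

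Mrpl33 and Mrps6 rose, under every scaling tried. Mrpl33, the homolog of the bacterial large-subunit protein L33, measured 11.1, 14.6 and 11.7 CPM after cisplatin, against 7.44, 6.14 and 7.55 CPM in controls (log2 fold change 0.83 ± 0.14, SE, edgeR adjusted p = 6.82e-04). All cisplatin libraries lay above all control libraries. The annotated exons of Mrpl33 (chr5:31754279-31837542, GRCm39) cover 14501 bases over many transcripts, against 732 bases of its canonical transcript, and counts per gene do not show which transcripts the added read pairs came from. Mrps6, the homolog of the bacterial small-subunit protein S6, measured 26.4, 24.6 and 24.6 CPM after cisplatin, against 19.0, 19.3 and 16.8 CPM in controls (log2 fold change 0.45 ± 0.093, SE, edgeR adjusted p = 0.00228). Mrps6 starts at the same base as Slc5a3, the sodium/myo-inositol cotransporter (chr16, base 91854965, GRCm39), and 22.2% of its exon bases overlap same-strand exons of Slc5a3 or of the predicted gene Gm49711. Slc5a3 itself measured 287.5, 237.5 and 279.8 CPM after cisplatin, against 273.1, 272.3 and 259.4 CPM in controls, with overlapping groups (log2 fold change -0.00022, edgeR adjusted p = 0.999).

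Other members stayed near 0 or above it without being called. Mrpl40, a large-subunit protein found only in mitochondria, measured 15.9, 17.1 and 19.8 CPM after cisplatin, against 18.7, 18.6 and 18.3 CPM in controls (log2 fold change -0.07 ± 0.10, SE), and it was called higher with library totals (0.35). Mrpl52 measured 13.3, 14.8 and 13.8 CPM after cisplatin, against 12.3, 11.9 and 12.2 CPM in controls (log2 fold change 0.20, edgeR adjusted p = 0.102). Mrpl23, whose bacterial homolog lies at the exit of the peptide tunnel, measured 4.24, 4.69 and 5.93 CPM after cisplatin, against 4.12, 4.04 and 3.56 CPM in controls (log2 fold change 0.33, edgeR adjusted p = 0.113). The groups of Mrpl52 and Mrpl23 did not overlap although the test did not call them. With library totals both were called higher (Mrpl52 0.63, Mrpl23 0.75), as they were with totals that leave out the mitochondrial genome (0.53 and 0.66), and Mrpl52 also with upper-quartile factors (0.29). Without cisplatin replicate 1, Mrpl23 passed the test at 0.43 (edgeR adjusted p = 0.04995).

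Mrpl46 and Mrps11 are neighbours transcribed in opposite directions, and their annotations overlap by 413 bases on opposite strands. Mrpl46, of the large subunit, measured 11.6, 14.9 and 15.7 CPM after cisplatin, against 23.7, 23.2 and 20.4 CPM in controls (log2 fold change -0.67, edgeR adjusted p = 0.0012). Mrps11, of the small subunit, whose window with a YY1 core is printed above, measured 12.3, 13.7 and 14.96 CPM after cisplatin, against 14.8, 16.2 and 16.01 CPM in controls (log2 fold change -0.20, edgeR adjusted p = 0.133). The log2 ratio of Mrpl46 to Mrps11 was -0.08, 0.13 and 0.07 in the cisplatin libraries, against 0.67, 0.51 and 0.35 in the control libraries, so the groups did not overlap. The pair was chosen after its values were seen, and the ratio was not tested. Without cisplatin replicate 3, Mrps11 was called lower (log2 fold change -0.30, edgeR adjusted p = 0.0267).

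Levels were compared between genes as CPM per kilobase of the canonical transcript. Mrps21 had 57.7 CPM per kilobase after cisplatin, against 103.1 in controls, and Mrpl20 had 64.2 after cisplatin, against 86.9 in controls. By the level in controls they were followed by Mrpl42 with 37.1 after cisplatin, against 55.1 in controls, Mrpl34 with 28.6, against 45.3, and Mrps18a with 27.2, against 38.8. Thus Mrpl20 had the highest level per length after cisplatin and Mrps21 in controls. The lowest tested members were Mrps18c, with 2.24 after cisplatin and 2.07 in controls, and Mrpl19, with 2.29 after cisplatin and 2.86 in controls. Over the tested members the median was 9.31 CPM per kilobase in the cisplatin group and 11.9 in the control group. The tested members differed 49.9-fold in level per length in controls, a span that depends on the transcript taken for the length. Mrpl20, the homolog of a bacterial protein that binds ribosomal RNA early in assembly, had 39.9, 51.6 and 55.6 CPM after cisplatin, against 65.2, 66.3 and 67.7 CPM in controls (log2 fold change -0.44, edgeR adjusted p = 0.00986). Mrpl42, found only in mitochondria, had 25.9, 26.9 and 33.6 CPM after cisplatin, against 45.7, 37.3 and 45.3 CPM in controls (log2 fold change -0.57). Mrpl34 had 15.9, 19.5 and 20.9 CPM after cisplatin, against 28.6, 29.3 and 31.1 CPM in controls (log2 fold change -0.66). These 3 genes were lower in every cisplatin library.

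For some members the counting may leave out or share reads. Same-strand exons of other genes overlap 8 members. Of the exon bases of Mrps34, 47.8% overlap Nme3, which was listed at 0 in all 6 libraries, and Mrps34 was not called (log2 fold change -0.24, edgeR adjusted p = 0.0854; 0.19 with library totals). Of the exon bases of Mrpl3, 26.4% overlap the predicted gene Gm38077, and Mrpl3 fell (log2 fold change -0.35, edgeR adjusted p = 0.00737), although its value was 0.074 with library totals. Mrps30 fell as well (log2 fold change -0.36, edgeR adjusted p = 0.0097), again with another sign under library totals (0.071). The 6 named pseudogenes of members had at most 7 counts in any library.

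The cisplatin libraries differed among themselves. Relative to the mean of controls, the median member stood at -0.57, -0.43 and -0.28 (log2) in cisplatin replicates 1, 2 and 3, against -0.02, 0.00 and 0.03 in control replicates 1, 2 and 3. Cisplatin replicate 1 was the lowest of its group in 65 of 77 members, and cisplatin replicate 3 the highest in 60. Of all read pairs, 9.32%, 6.63% and 6.09% matched no annotated exon of their strand in the cisplatin libraries, against 4.86%, 4.63% and 4.69% in the control libraries. The TMM factors were 1.26, 1.18 and 1.05 in the cisplatin libraries, against 0.894, 0.852 and 0.844 in the control libraries. Since CPM are divided by the TMM factor, the order of the members across these libraries is partly set by it. Over all tested genes, cisplatin replicate 1 was the lowest of its group in 36.7% and replicate 3 the highest in 37.0%. Scaled to counted pairs alone, replicate 1 was the lowest in 36 of 77 members (46.8%), against 16.1% of all tested genes. Replicate 3 was then the highest in 28 members (36.4%) and the lowest in 26 (33.8%), against 13.8% and 64.6% of all tested genes. Most often the highest was replicate 2, in 37 members (48.1%), against 28.6% of all tested genes. Without cisplatin replicate 3, 67 members were called lower, beside 26.1% of all genes, and the median of the members was -0.52.

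**Figure D3:**
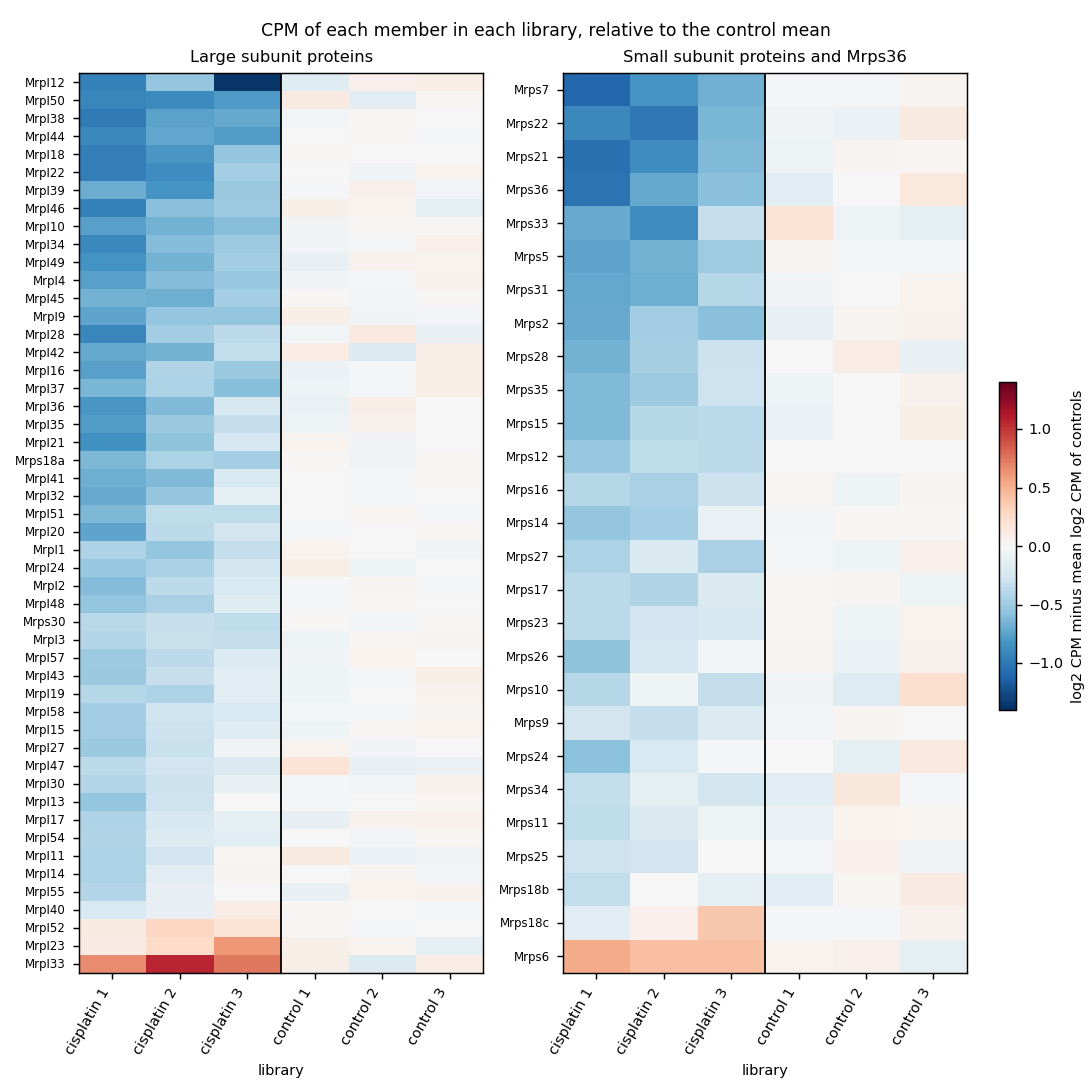
Log2 CPM of the 77 tested members in each library minus the mean of the 3 control libraries, ordered by log2 fold change (cisplatin columns left, control columns right, TMM scaling). Blue is lower and red higher than controls; cisplatin replicate 1 is the lowest of its group in 65 members, and Mrpl33 and Mrps6 are red in every cisplatin library.

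The direction of the family depended on how the libraries were scaled. Summed over members, CPM were 1364, 1539 and 1664 in the cisplatin libraries, against 2076, 2097 and 2137 in the control libraries. Scaled to counted pairs alone, without a TMM factor, the sums were 1713, 1811 and 1743 in the cisplatin libraries, against 1855, 1785 and 1802 in the control libraries, and the groups overlapped. With library totals, 13 members were lower and 7 higher, beside 8.78% of all genes lower and 54.3% higher. The 13 included Mrpl50, Mrpl44, Mrpl38, Mrpl10, Mrps7, Mrps21, Mrps22, Mrpl18 and Mrpl4. Relative to all tested genes the family stood low: its median minus that of all genes was -0.46 with TMM factors. A change of scaling shifts all genes by about the same amount, so this difference could not respond to it (-0.47 with library totals). Over the alternatives the difference ran from -0.55 without cisplatin replicate 3 to -0.38 without cisplatin replicate 1. Mitochondrial ribosomal RNA took 41.1%, 43.5% and 48.6% of counted pairs in the cisplatin libraries, against 45.5%, 47.4% and 48.0% in the control libraries. Leaving the mitochondrial genome out of the totals gave 21 members lower and 6 higher, beside 11.1% of all genes lower.

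**Figure D4:**
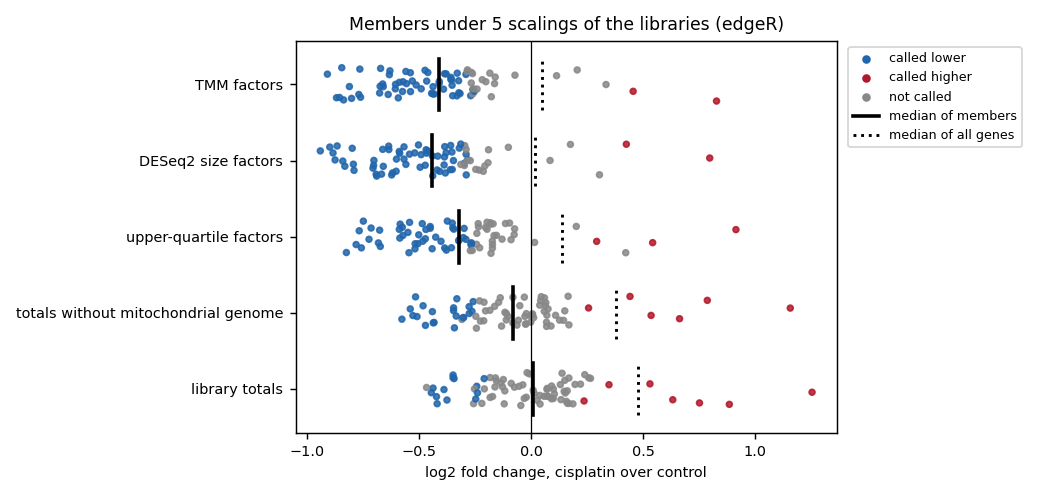
Log2 fold changes (cisplatin over control, edgeR) of the 77 tested members under 5 scalings, coloured by call, with the median of the members (solid) and of all tested genes (dotted). The median of the members is -0.41 with TMM factors and 0.0083 with library totals. In each row it lies below that of all tested genes, which a change of scaling cannot alter because it moves both by about the same amount.

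Marker genes of cell types differed between the groups as well, with TMM factors. The summed CPM of 20 proximal tubule markers was 9087 to 9620 in the cisplatin libraries, against 42921 to 44321 in the control libraries, and 18 of the 20 fell and none rose (median log2 fold change -1.08). Kap, an androgen-regulated protein of the proximal tubule, made up much of the control sum, and without it the other 19 markers summed to 8821 to 9209 CPM in the cisplatin libraries, against 21310 to 23584 CPM in the control libraries. The summed CPM of 12 macrophage markers was 307.1 to 365.0 in the cisplatin libraries, against 105.3 to 131.1 in the control libraries, with 11 of 12 higher, and 6 of 7 fibroblast markers were higher as well. Of other lists, 3 of 3 distal convoluted tubule and 3 of 6 endothelial markers were lower, beside 22.8% of all tested genes. Higher were 4 of 6 collecting duct and 1 of 4 podocyte markers, beside 24.5% of all tested genes. Of 4 markers of the thick ascending limb, 1 was lower and 2 were higher, and 1 of 2 tested lymphocyte markers was higher. With library totals, 13 proximal tubule markers were lower and 1 higher, and 12 macrophage and 7 fibroblast markers were higher. Of distal convoluted tubule markers 1 was then lower, and of endothelial markers 0 were lower and 1 was higher. Higher were also 5 collecting duct, 3 podocyte, 2 thick ascending limb and 2 lymphocyte markers. Over all tested genes, 8.78% were lower and 54.3% higher with library totals. No proximal tubule, macrophage or fibroblast marker was at 0 in any library. The part of these cell types in the lower level of the members was not tested.

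With TMM factors, other genes of mitochondrial translation mostly moved in the same direction as the members, and the counts under library totals stand beside them. For comparison, 22.8% of all tested genes were lower and 24.5% higher with TMM factors, against 8.78% and 54.3% with library totals. Of 5 ribosomal proteins with other names, 4 fell (median log2 fold change -0.41), against 1 lower and 1 higher with library totals (median 0.01). Ptcd3, a pentatricopeptide protein of the small subunit, measured 18.8, 17.0 and 18.7 CPM after cisplatin, against 31.1, 30.7 and 30.2 CPM in controls (log2 fold change -0.76, edgeR adjusted p = 4.65e-05). The others that fell were Gadd45gip1 (-0.49), Dap3 (-0.41) and Aurkaip1 (-0.35), and Chchd1 was not called (-0.11). Of 26 genes for assembly of the ribosome and modification of its RNA, 14 fell and none rose (median -0.41), against 3 lower and 5 higher with library totals (median 0.0096). They included the GTPase Mtg2 (-0.82), the ribosomal RNA methyltransferase Mrm2 (-0.82), the RNA-binding protein Fastkd2 (-0.79) and the helicase Dhx30 (-0.52).

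With TMM factors, the medians of translation factors, tRNA synthetases, RNA processing genes and import genes of mitochondria were lower still. Beside the counts below stand 22.8% of all tested genes lower and 24.5% higher, or 8.78% and 54.3% with library totals. Of 16 translation factors and partners 12 fell and none rose (median -0.65), against 7 lower and 1 higher with library totals (median -0.22). Gfm2, the elongation factor that takes part in ribosome recycling, measured 22.4, 23.2 and 26.1 CPM after cisplatin, against 54.3, 54.8 and 53.3 CPM in controls (log2 fold change -1.18, edgeR adjusted p = 2.44e-06). The translocase Gfm1 (-1.0), the elongation factor Tufm (-1.02) and Lrpprc, which stabilises mitochondrial messenger RNAs (-0.96), were each lower in every cisplatin library. Of 17 mitochondrial aminoacyl-tRNA synthetases 12 fell and none rose (median -0.61), against 5 lower and none higher with library totals (median -0.18), with Yars2 at -1.0, Rars2 at -0.96, Cars2 at -0.76 and Fars2 at -0.75. Of 10 genes for transcription and RNA processing in mitochondria 9 fell (median -0.48), against 0 lower and 1 higher with library totals (median -0.053). Those that fell with TMM factors included Supv3l1 (-0.69), Trmt10c (-0.69), Tfb2m (-0.56) and Tfam, which packages the mitochondrial genome (-0.46). Of 16 genes for import, porins and chaperones 12 fell (median -0.53), against 3 lower and 3 higher with library totals (median -0.11). The largest falls were in the chaperonins Hspd1 (-1.53) and Hspe1 (-1.07).

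The ribosomal RNAs of the mitochondrial ribosome pointed the same way, with less certainty. The small ribosomal RNA mt-Rnr1 was lower (log2 fold change -0.61, edgeR adjusted p = 0.0161), and mt-Rnr2, the large one, was not called (-0.47, edgeR adjusted p = 0.131). With library totals neither was called (mt-Rnr1 -0.18, mt-Rnr2 -0.06), and the share of both in the counted pairs, given above, overlapped between the groups.

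Of 9 listed regulators of mitochondrial gene expression, 3 fell and 2 rose (median -0.12), beside 22.8% of all tested genes lower and 24.5% higher. With library totals 1 was lower and 3 were higher (median 0.31), beside 8.78% and 54.3% of all tested genes. The counts of this short list were not tested against those shares. Esrra, the estrogen-related receptor that drives oxidative genes, measured 27.8, 33.9 and 35.0 CPM after cisplatin, against 55.1, 52.5 and 53.4 CPM in controls (log2 fold change -0.74, edgeR adjusted p = 1.46e-04). Gabpa, the DNA-binding subunit of GABP, measured 34.5, 36.3 and 38.0 CPM after cisplatin, against 49.0, 44.0 and 49.2 CPM in controls (log2 fold change -0.39). Both had no overlap between the groups, and the coactivator Ppargc1a was also lower (-0.26). Nrf1, the factor that binds the NRF1 core, measured 14.3, 14.4 and 14.7 CPM after cisplatin, against 10.8, 12.0 and 11.7 CPM in controls. Nrf1 thus rose (log2 fold change 0.33, edgeR adjusted p = 0.0146). Myc was also called higher (1.07 ± 0.34, SE, edgeR adjusted p = 0.0248), but its groups overlapped. Myc measured 5.06, 5.26 and 2.75 CPM after cisplatin, against 1.18, 3.36 and 1.83 CPM in controls. Yy1 was not called (-0.12, edgeR adjusted p = 0.438).

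Complex I, whose core subunits this ribosome makes, and the cytosolic ribosome were set beside the family. Among all tested genes 22.8% were lower and 24.5% higher, against 8.78% and 54.3% with library totals. Of 39 tested Nduf subunit genes 34 fell and none rose (median -0.56), against 15 lower and 2 higher with library totals (median -0.14). Without Ndufa4, now assigned to complex IV, and its paralog Ndufa4l2, 33 of 37 fell, with Ndufs1 at -1.12. Of 81 tested cytosolic ribosomal protein genes 32 rose and 4 fell (median 0.26), against 76 higher and 1 lower with library totals (median 0.68). The cytosolic genes that fell were Rpl3l, a paralog of Rpl3 known from muscle, Rpl13a, Rpl7l1 and Rpl22l1. Thus the 2 kinds of ribosomal protein genes had medians of opposite sign with TMM factors (-0.41 for the mitochondrial and 0.26 for the cytosolic genes), whereas with library totals they were 0.0083 and 0.68.

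**Figure D5:**
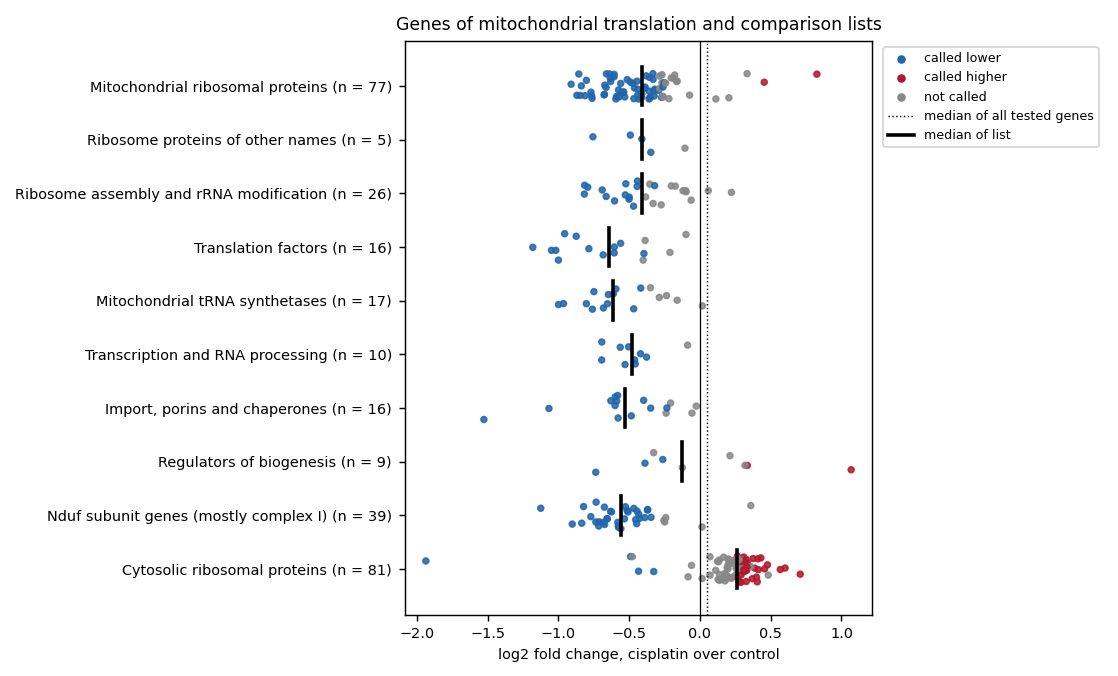
Log2 fold changes (cisplatin over control, edgeR with TMM factors) of the tested members and of 9 other gene lists, coloured by call, with the median of each list (bar) and of all tested genes (dotted line, 0.05). The medians run from -0.65 for translation factors to 0.26 for cytosolic ribosomal proteins. With library totals those of the members, of ribosome proteins of other names, of assembly genes and of regulators turn positive. The median of all tested genes is then 0.48.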

How the data were processed

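The authors deposited raw gene counts per library, which STAR wrote after adapters had been cut off with cutadapt and pairs placed on mm39, with no normalization. The STAR settings are unknown here, and which annotation release was counted is not given in the sources used. The deposited counts of the transcript strand were used. Symbols, coordinates and lengths are from GENCODE vM39 (GRCm39), which holds 56017 of the 56691 genes, and promoter windows are from RefSeq.

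Groups were taken from the sample titles, 3 libraries each. Genes were tested with edgeR 4.0.16 (filterByExpr with a minimum count of 10 and minimum total of 15, TMM, quasi-likelihood test), two-sided, with Benjamini-Hochberg adjustment over 15662 genes at 0.05. The fit was tested on simulated data, where it missed most changes of 1.5-fold or less and the share of false calls was above the threshold. Log2 CPM used a prior count of 2. Alternatives used DESeq2 1.42.0, limma 3.58.1 (voom), other scalings, other filters, unstranded counts, a replicate block and leaving out each library. R 4.3.3 and Python 3.11.15 were used.

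The members and gene lists were chosen with earlier results of these data known. Members named are the 10 with the smallest adjusted p, the 5 largest falls, those that rose, the 5 highest per length in controls, the 3 nearest to no change, those not tested and those with a named structural role. From each other list up to 4 called genes per direction are named. Mrpl3, Mrpl17, Mrpl19, Mrpl23, Mrpl27, Mrpl46, Mrpl47, Mrpl52, Mrpl55, Mrps11, Mrps30, Mrps34, Mrps36, Chchd1 and Yy1 were named after their values were seen. Depth limits the least abundant members most, and replicates of a group differed by more than counting noise. The sums without Kap, the counts without Ndufa4 and Ndufa4l2 and the order of libraries by counted pairs were added after seeing the data.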

Additional observations from a re-analysis of the deposited data

How the results depend on the processing

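Scaling was the choice that changed most. With library totals, 13 members were lower and 7 higher, their median log2 fold change was 0.0083, and 1375 genes were lower and 8508 higher. With totals without mitochondrially encoded genes, 21 members were lower and 6 higher, the median was -0.083, and 1736 genes were lower and 7854 higher. Of the 72 members with a negative value, 34 turned positive with library totals, 22 with totals without mitochondrially encoded genes and 1 with upper-quartile factors. They include Mrpl17, Mrpl19, Mrpl27, Mrpl47 and Mrpl55, under both kinds of totals. Among the other members named in the text, library totals turned the sign of Mrpl11 (0.195), Mrpl3 (0.0736), Mrpl40 (0.347), Mrpl58 (0.0983), Mrps11 (0.219), Mrps12 (0.0129), Mrps18b (0.264), Mrps30 (0.071) and Mrps34 (0.186). Totals without mitochondrially encoded genes turned, among the same members, Mrpl11 (0.108), Mrpl40 (0.255), Mrpl58 (0.00513), Mrps11 (0.126), Mrps18b (0.168) and Mrps34 (0.0877), and upper-quartile factors turned Mrpl40 (0.0146). The cause of these differences was not tested. Upper-quartile factors gave 45 members lower and 3 higher, the DESeq2 test 55 and 2, and limma-voom 57 and 2. Of all genes in these fits, 18.5%, 11.5% and 23.0% were lower.

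Leaving out each library in turn gave 46 to 67 members lower, 2 to 3 higher and a median of -0.523 to -0.353. Over all genes, 18.0% to 26.1% were lower when a library was left out. For Mrps18c these fits gave -0.062 to 0.228. With the replicate number as a block, 62 members were lower and 2 higher, beside 24.2% of all genes lower. Deviations from the group means correlated between equal numbers at 0.133, 0.142 and 0.0997, and between unequal numbers at -0.126 to -0.0259. Each library correlated best with its own number, but the titles state no pairing and the main fit used none. Whether the numbers pair the libraries was not tested.

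With 3 libraries per group, small changes such as those of the 18 members that were not called cannot be told from no change. Counts per gene do not separate transcripts, and whole kidney does not separate cell types. Protein, ribosome assembly and mitochondrial translation were not analysed here.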
